A study of Trichechus manatus latirostris with 11 samples.

Results

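The genes described here make and break down heme, move and store iron, or build the red cell. They were a list of 40 symbols, of which 27 had at least 1 row in the authors' table, matched by transcript record to the RefSeq gene table of the manatee assembly TriManLat1.0. ALAD had 2 rows, so that 28 of 15298 rows are described. ALAS1, FECH, BLVRA, TFRC, TF, HPX, HAMP, NCOA4, TAL1, EPB42, ANK1, GYPC and TRIM58 had no row under their symbol and were not analysed here. A symbol was found for 10080 of the 15298 rows, so these genes may lie among the rows without a symbol.

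Buffy coats, the white cell layer of centrifuged blood, were taken from adult Florida manatees. A red tide group of 4 animals was under treatment for red tide illness at Lowry Park Zoo (ZooTampa). A control group of 7 held 4 animals from Crystal River, 2 from the Indian River Lagoon (Brevard County) and 1 at the zoo that was recovering from pneumonia. Sampling place and group therefore largely coincided and cannot be told apart. By the study's dates every red tide sample was also collected before any control sample, so collection period and group cannot be told apart either. Per the study's methods 2 animals of the red tide group were sampled on arrival and 2 after a week of treatment, and their buffy coats were frozen at once, whereas the labels give storage in RNAlater for every sample. Every library was made after depletion of ribosomal and globin RNA. The buffy coat lies directly on the packed red cells, so it can carry red cells and platelets, and in whole layers of cells a smaller number of cells of a type and less RNA per cell cannot be told apart.

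Heme is built in a chain of enzymes that starts and ends in the mitochondrion. ALAS2 catalyses the first step in red cell precursors, and ALAD, UROS, UROD, CPOX and PPOX carry the product onward. Heme oxygenases open the ring and release iron, which ferritin stores. Iron regulatory proteins bind messenger RNAs of these pathways and set their translation or stability according to the iron supply, and GATA1 and KLF1 drive the red cell program.

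The table gives for each row a mean normalized count, that is reads divided by a size factor of the library, over 4 libraries and over 7 libraries. The columns do not name their groups. The sizes 4 and 7 are those of the red tide and the control group, and each mean is called here after the libraries it covers. Read by these sizes, the columns give a direction between red tide and control that is the reverse of the one the study's text uses for genes of the marker lists named further on. Which is right cannot be settled from the sources used here, so no value is read as higher or lower in red tide. Each ratio is the log2 of the 4-library mean divided by the 7-library mean, so that a negative ratio stands for a higher 7-library mean. Group means carry no error, and a ratio of at least 2-fold served only to describe size, not as a test. Each mean is a sum of whole reads of its libraries, and the reads of single libraries could be worked out in the group of 4 where its mean did not exceed 100, which took in 14 member rows, and in all 11 libraries for the 4 of these whose 7-library mean did not exceed 6. The size factors, which scale the counted reads of each library, were 1.56, 1.03, 0.620 and 0.372 in the group of 4 and 0.702 to 1.73 in the group of 7. They span a wider range than the read totals per sample that the study gives, so they do not stand for sequencing depth alone. Which animal a library came from is not known.

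Of the 28 rows, 18 were higher in the 7-library mean, or 64.3%, against 43.6% of all rows. At least 2-fold higher in the 7-library mean were 7 rows, which is 25.0% of the members, where 10.4% of all rows were past that fold. They were ALAS2, UROS and 1 row of ALAD among the heme enzymes, SLC25A37, SLC11A1 and STEAP3 among the iron carriers, and TMOD1 of the membrane skeleton. KLF1 alone was at least 2-fold higher in the 4-library mean (3.57%, against 23.9% of all rows). The median ratio was -0.34 over the members and 0.14 over all rows. Among the 23 member rows with an overall mean of at least 10, 5 were at least 2-fold higher in the 7-library mean and 0 in the 4-library mean, with 9.59% and 12.3% of all such rows. The median ratio of these member rows was -0.34, against -0.01 for all such rows, a smaller gap than over all rows. With 4-fold as the limit, 3 rows were higher in the 7-library mean (UROS, STEAP3 and 1 row of ALAD), against 2.27% of all rows, and with 1.5-fold 10 rows were, against 20.2%.

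**Figure D1:**
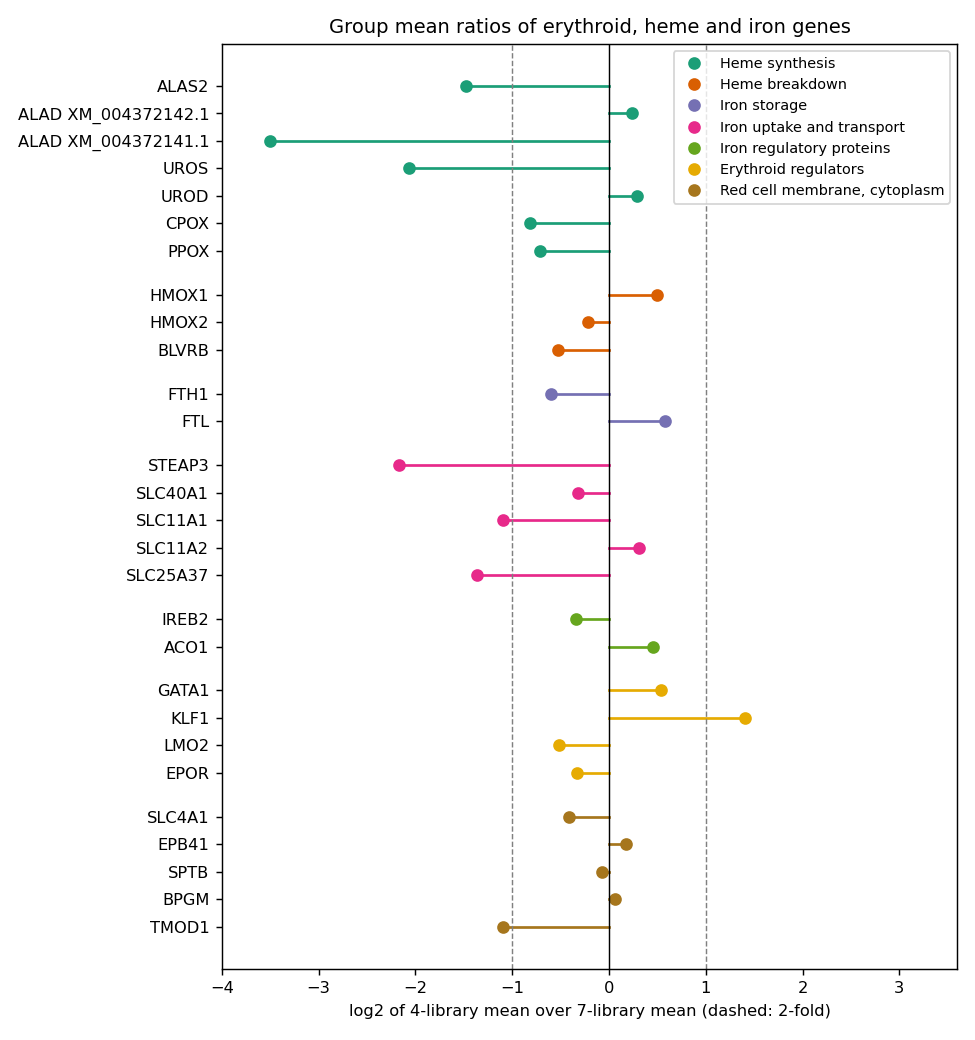
Log2 of the 4-library mean divided by the 7-library mean (x axis) for the 28 rows, 1 line per row, coloured by role, with dashed lines at 2-fold. The heme enzymes and iron carriers reach furthest to the left, with ALAD XM_004372141.1 at -3.51, KLF1 lies beyond the dashed line on the right at 1.41, and storage, breakdown and iron regulatory proteins lie between the lines.

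Of the 7 rows of heme synthesis, 3 (42.9%) were at least 2-fold higher in the 7-library mean, against 10.4% of all rows, and the median ratio was -0.82. Where the mean over all 11 libraries was at least 10, this held for 2 of 5 rows, against 9.59% of all such rows. ALAS2 (XM_004389139.1), the erythroid form of the first enzyme, stood at 467 normalized counts in the 7-library mean and 168 in the 4-library mean, a 2.78-fold difference and a ratio of -1.48. This lay at percentile 4.80 of the ratios of all rows. Its 4-library mean was too high for single reads to be recovered, so its spread between animals is not known.

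UROS (XM_004374928.1), which closes the porphyrin ring, had means of 17.8 and 74.6, a ratio of -2.06. Its normalized counts in the 4 libraries, in order of falling size factor, were 7.06, 6.81, 46.7 and 10.8, from 11, 7, 29 and 4 reads. All 4 lay under the 7-library mean, but the library of size factor 0.620 stood far above the others. Without that library the ratio was -3.18.

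ALAD joins the product of the first enzyme into a pyrrole, and its 2 transcript records gave different values. XM_004372141.1 had 2 reads in the 4 libraries together, both in the library of size factor 1.56, and 29 in the 7 libraries. In order of falling size factor the 7 libraries held 3, 2, 0, 15, 4, 2 and 3 reads. The groups overlapped, since 1 library of the 7 held none. The 7-library mean was 11.4-fold higher, and the 95% Poisson interval of the 2 reads allows 3.15-fold to 93.9-fold, for counting error only. An exact two-sided permutation test on the normalized counts gave p = 0.0303, and the Benjamini-Hochberg adjusted value over the 4445 rows with reads in all 11 libraries was 0.324, so the difference did not pass. The smallest p of this design is 0.00606, and the smallest adjusted value over those rows was 0.21. Leaving out any of the 4 libraries gave an unadjusted exact permutation p of 0.0667. Leaving out any of the 7 gave 0.0476, except for 0.00952 without the library of size factor 1.19, the one that held no reads.

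The other record, XM_004372142.1, had 8, 0, 2 and 2 reads in the 4 libraries and 5, 1, 6, 9, 0, 3 and 1 in the 7. The groups overlapped over their whole range, with means of 3.43 ± 2.48 (SD, n = 4) and 2.91 ± 2.68 (SD, n = 7) normalized counts. The exact permutation test gave p = 0.739 (adjusted 0.904). How the authors' counting shared reads between overlapping records of a gene is not given in the sources used here, so each ALAD row is uncertain. Among the 4 member rows with reads in all 11 libraries, 1 had an unadjusted exact permutation p under 0.05, where 15.0% of all such rows did, or 4.75% of those with both means up to 6. In 0 of the 4 did the groups separate, with each of the 4 libraries above or below each of the 7, as they did in 2.81% and 0.0675% of all such rows. The limits of recovery, means of up to 100 for the 4 libraries and 6 for the 7, favour rows with the 4 above.

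UROD removes carboxyl groups from the ring, and of the heme enzymes with recovered reads it had the narrowest relative spread. Its 4 libraries gave 88.5, 123, 93.5 and 83.4 normalized counts, a mean of 97.0 ± 17.6 (SD, n = 4), all above the 7-library mean of 79.1. The ratio was 0.29. CPOX, the next enzyme, had means of 180 and 317, a ratio of -0.82. PPOX, which acts before the iron is inserted, had 12.8, 8.76, 11.3 and 0 normalized counts in the 4 libraries beside a 7-library mean of 13.4. The 0 came from the library of size factor 0.372, where 3 reads would correspond to 8.07 normalized counts. Without that library the PPOX ratio of -0.71 became -0.29. Leaving out that of size factor 1.56 instead gave -1.01.

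Heme breakdown showed no ratio past 2-fold in its 3 rows. HMOX1, the inducible oxygenase, gave 59.0, 38.0, 37.1 and 10.8 normalized counts in the 4 libraries, a mean of 36.2 ± 19.8 (SD, n = 4) beside a 7-library mean of 25.6. The library of size factor 0.372 lay below that mean and the other 3 above it. HMOX2, the constitutive oxygenase, had means of 192 and 222. BLVRB, a biliverdin reductase that is abundant in red cells, had 99.4, 111, 72.5 and 35.0 normalized counts in the 4 libraries, all below its 7-library mean of 114, with a ratio of -0.53.

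The iron storage genes with a row were those of the ferritin chains, whose ratios had opposite signs. Only their RNA was measured, not ferritin protein or stored iron. FTH1, the heavy chain with ferroxidase activity, had means of 3915 over the 4 libraries and 5931 over the 7, a ratio of -0.60. FTL, the light chain, had 2727 and 1830, a ratio of 0.58. Neither reached 2-fold, and without values of single libraries their difference could not be set against the spread between animals.

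Of the 5 rows of iron carriers, 3 (60%) were at least 2-fold higher in the 7-library mean, against 10.4% of all rows, and the median ratio was -1.10. Where the mean over all 11 libraries was at least 10, this held for 2 of 3 rows, against 9.59% of all such rows. SLC25A37 (mitoferrin-1), which brings iron into the mitochondria of red cell precursors, had means of 118 and 302 and a ratio of -1.36. SLC11A1, an iron and manganese transporter of the phagosome in macrophages and neutrophils, gave 32.1, 29.2, 12.9 and 5.38 normalized counts in the 4 libraries. All were below its 7-library mean of 42.5, with a ratio of -1.10 that became -0.78 without the library of size factor 0.372 and -1.43 without that of 1.56. STEAP3, the endosomal ferrireductase of red cell precursors, rested on 12 reads in the 4 libraries, namely 3, 9, 0 and 0. Its ratio of -2.17 became -4.23 once the library of size factor 1.03 was left out. SLC40A1 (ferroportin), the iron exporter, had means of 3029 and 3786, a ratio of -0.32. SLC11A2 (DMT1), the transporter of the endosome and the gut, had 3 reads in each group, each time in a single library, and no fold is given.

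The iron regulatory proteins also had ratios of opposite sign within 2-fold. IREB2 (iron regulatory protein 2) had means of 686 and 867, a ratio of -0.34. ACO1, the cytosolic aconitase that becomes iron regulatory protein 1 when it loses its iron-sulfur cluster, had 328 and 239, a ratio of 0.46.

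The regulators of the red cell program differed in direction. GATA1, a factor of both red cell and platelet precursors, had means of 418 and 288, a ratio of 0.53. LMO2, an adaptor in the GATA1 complex, had 617 and 885, a ratio of -0.52. KLF1, a factor restricted to the erythroid line, rested on few reads, with 0, 3, 2 and 4 in the 4 libraries and 4, 0, 0, 7, 0, 0 and 2 in the 7. Its means were 4.23 ± 4.59 (SD, n = 4) and 1.59 ± 2.29 (SD, n = 7), a ratio of 1.41 with overlapping groups (exact two-sided permutation test, p = 0.212, adjusted 0.514). Without the library of size factor 0.372 the KLF1 ratio was 0.36. EPOR, the erythropoietin receptor, gave 4.49, 6.81, 25.8 and 18.8 normalized counts in the 4 libraries, on both sides of its 7-library mean of 17.6.

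The red cell membrane and cytoplasm genes lay within 2-fold with the exception of TMOD1, which caps the short actin filaments of the membrane skeleton and had means of 156 and 333, a ratio of -1.10. EPB41 (protein 4.1), which ties spectrin to actin, had 836 and 743. BPGM, which makes the 2,3-bisphosphoglycerate that lowers the oxygen affinity of hemoglobin, had 896 and 857. SLC4A1 (band 3), the anion exchanger, gave 7.06, 3.89, 33.8 and 10.8 normalized counts in the 4 libraries beside a 7-library mean of 18.5. Its ratio of -0.41 became -1.35 without the library of size factor 0.620. SPTB, the beta chain of spectrin, gave 26.3, 28.2, 82.2 and 21.5 beside a 7-library mean of 41.6, and its ratio of -0.07 became -0.72 without the same library.

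**Figure D2:**
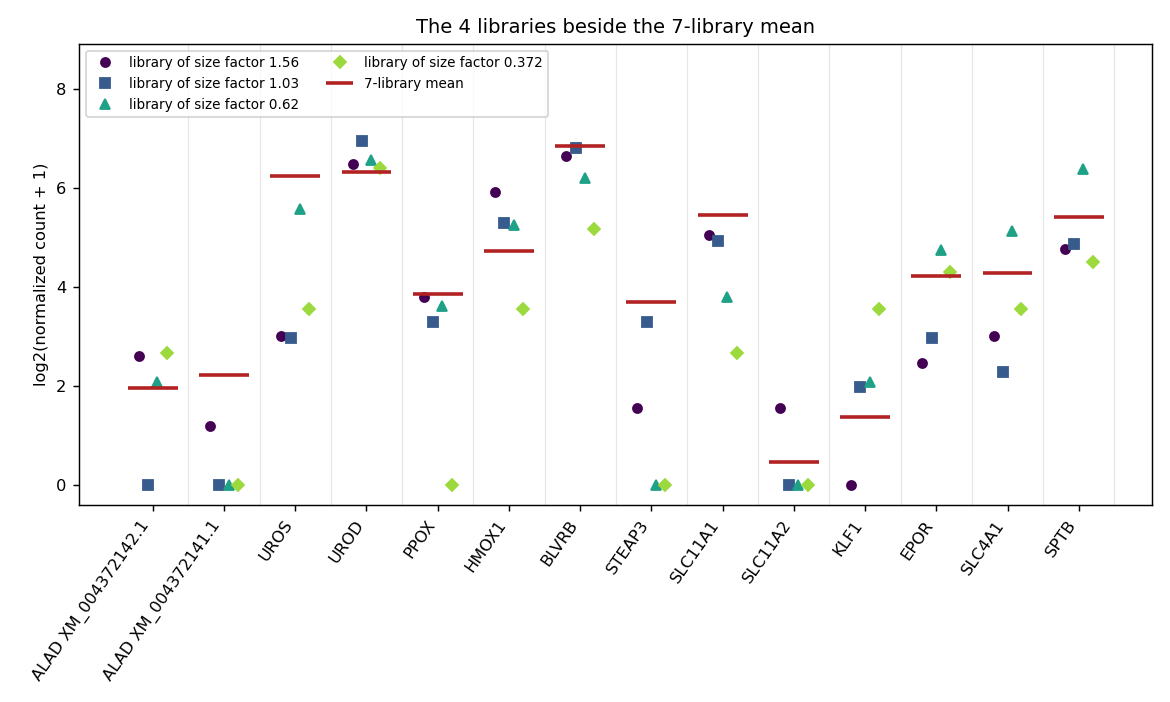
Log2(normalized count + 1) in each of the 4 libraries (symbols, by size factor) and the 7-library mean (red bar) for the 14 rows with recovered reads. The library of size factor 0.620 is highest for UROS, EPOR, SLC4A1 and SPTB, which is 4 of the 12 rows with a 4-library mean of at least 1, against 31.1% of all such rows, and all 4 libraries lie under the bar for ALAD XM_004372141.1, UROS, PPOX, BLVRB, STEAP3 and SLC11A1.

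Over the 14 rows with recovered reads, all 4 libraries were below the 7-library mean in 6 (42.9%) and above it in 1, UROD (7.14%). Of all rows recovered in the 4 libraries, 17.8% had all 4 below and 10.6% all 4 above. Where the overall mean was at least 10, this was so for 4 and 1 of 9 member rows, against 27.1% and 13.2% of all such rows. The limit of 100 on the 4-library mean favours rows that are lower in it. The spread of the 4 libraries was wide: for the 8 member rows with a 4-library mean from 10 to 100, the coefficient of variation was 18.1% to 108%, with a median of 68.3%, against 49.8% for all 5487 rows of that range.

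Markers of other blood cells also differed between the means. Of 25 listed neutrophil markers 15 had a row, with 0 rows listed at 0. Of these 15 rows 11 (73.3%) had a 7-library mean at least 2-fold higher, against 10.4% of all rows. The median ratio of the 15 was -2.23, with ratios from -3.32 to 2.38, and the summed means were 2965 over the 4 libraries and 13303 over the 7. Of 20 listed platelet markers 11 had a row, of which 8 (72.7%) had a 4-library mean at least 2-fold higher, against 23.9% of all rows. The median ratio of the 11 was 1.66 and the summed means were 40347 and 9164, of which THBS1 alone gave 19820 and 2099. Monocyte, T cell and B cell markers had medians of -0.15, 0.07 and -0.44. In the 10 neutrophil rows with recovered reads, the summed normalized counts of the 4 libraries were 133, 299, 572 and 194, and in 5 platelet rows 167, 208, 624 and 172. Over these rows the library of size factor 0.620 had the highest sums. Markers with a 4-library mean above 100, among them S100A9 and THBS1, are not in the sums, so this order does not describe the whole lists. That library was also the highest of the 4 in 31.1% of all rows with recovered reads and a 4-library mean of at least 1, and in 4 of 12 such member rows (33.3%). The reversed direction between the groups in the study's text concerns genes of both of these lists. The part of these cell types in the ratios of the members was not tested. HBM (hemoglobin subunit mu) was the only globin gene of the list with a row, at means of 2.28 and 2.19.

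The other genes of these pathways are read against the 10.4% and 23.9% of all rows that were at least 2-fold higher in the 7-library and the 4-library mean. Among 19 rows of other heme, iron-sulfur and regulatory genes, 3 were at least 2-fold higher in the 7-library mean (15.8%) and 1 in the 4-library mean (5.26%), around a median of -0.21, or -0.0034 for those with an overall mean of at least 10, where all rows had -0.01. BACH1, a heme-binding repressor of HMOX1, had the highest overall mean and a ratio of -0.21. NFE2L2 had 1 row at 1.03 and another at -0.61.

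Among 13 rows of other iron handling genes, 2 were at least 2-fold higher in the 7-library mean (15.4%) and 3 in the 4-library mean (23.1%), around a median of -0.30. HP, which the study names among its most changed genes, is on this list but had no row under its symbol. LCN2, which binds iron-loaded siderophores and is also on the neutrophil list, had means of 71.0 and 192, a ratio of -1.44. STEAP4, a metalloreductase with the highest overall mean of the list, had 488 and 1249. BMP6, a signal for hepcidin, had 17 reads in the 4 libraries and 3 in the 7, a 13.8-fold difference with a 95% Poisson interval of 4.71-fold to 66.7-fold from the 3 reads (exact two-sided permutation test, p = 0.0485, adjusted 0.324).

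Among 33 rows of other red cell genes, 4 were at least 2-fold higher in the 7-library mean (12.1%) and 6 in the 4-library mean (18.2%), around a median of -0.22. TMEM56, another of the genes the study names as most changed, is on this list but likewise had no row under its symbol. ADD2 (beta adducin), a spectrin-binding protein, had the lowest ratio, -1.33, and normalized counts of 26.3, 157, 103 and 2.69 in the 4 libraries beside a 7-library mean of 181. TPM3, a tropomyosin, had the highest overall mean and a ratio of 0.41. TAL2 had the highest ratio, 2.22, but its reads came from 1 library in each group.

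**Figure D3:**
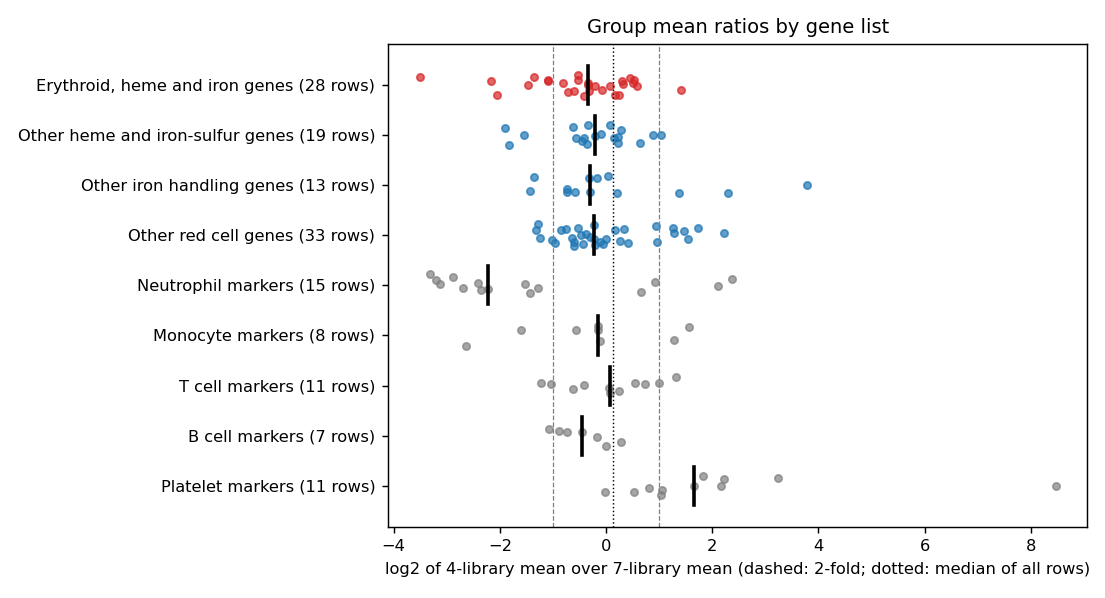
Log2 of the 4-library mean divided by the 7-library mean (x axis) for each row of 9 gene lists, with black bars at the list medians, dashed lines at 2-fold and a dotted line at the median of all rows. The 28 member rows centre at -0.34, the neutrophil markers at -2.23 and the platelet markers at 1.66.

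Within the group of 7, 1 library held a large share of the reads of several rows of few reads, a feature noticed after the values were seen. This library, of size factor 1.17, held 15 of 29 reads of ALAD XM_004372141.1, 9 of 25 of ALAD XM_004372142.1 and 7 of 13 of KLF1. It also held all 18 HBM reads of the group, but 0 of 3 SLC11A2 reads. Of all 2533 rows with recovered reads and a 7-library mean of at least 1, this library was the highest in 15.7% and held at least 50% of the reads in 5.25%. Without it the 7-library mean of ALAD XM_004372141.1 was 2.12 in place of 3.65 and its ratio became -2.73, that of KLF1 became 2.30 and that of ALAD XM_004372142.1 became 0.70. The exact permutation p of ALAD XM_004372141.1 was then 0.0476.

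**Figure D4:**
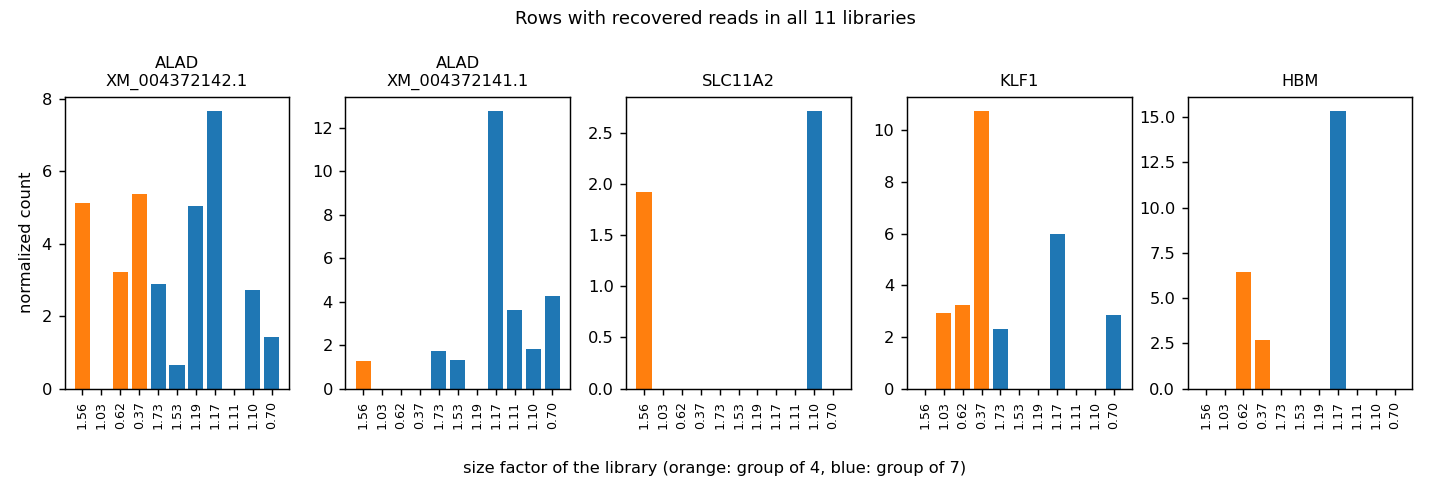
Normalized counts (bars, y axis from 0 in each panel) of the 4 member rows with reads in all 11 libraries and of HBM, by the size factor of the library (x axis), orange for the group of 4 and blue for the group of 7. The blue library of size factor 1.17 is the highest of its group for both ALAD rows, KLF1 and HBM, with 12.8 normalized counts for ALAD XM_004372141.1.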

How the data were processed

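RNA-seq of 11 manatee buffy coats was deposited as 1 table of group means. Per the study's methods the authors trimmed reads with Cutadapt and mapped them with Bowtie2 to TriManLat1.0. Duplicates and reads with several placements were dropped, reads were counted for each gene sequence, and groups were compared with DESeq in the DEB tool. No annotation release is named in the sources used here. The authors' deposited signal is the mean of counts divided by size factors, over all libraries and per group. The authors' fold changes, p-values and adjusted p-values were not used. It left 0 columns of single samples unused.

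In all 15298 rows the overall mean equalled the group means weighted by 4 and 7 to within a relative 3.34e-09. What 1 read of each library adds to its group mean was read from the smallest means and refined by least squares. Reads of single libraries were then searched for means up to 100 (4 libraries) or 6 (7 libraries), within 10 significant digits, and accepted where only 1 set of whole reads gave the mean, in 10144 of 10159 and 4459 of 4505 rows. On simulated data 100% and 99.71% of means had only 1 such set, which was the true one in 100%. Intervals cover counting error only. Symbols came from RefSeq for 10080 rows, matched without record version. The scaffold of a gene is not named there, so no coordinates are given. Exact two-sided permutation tests used all 330 splits of 11 libraries on normalized counts, with Benjamini-Hochberg adjustment over 4445 rows. Each library came from 1 animal. Every member with a row was named, and of other lists the genes with the extreme ratios and the highest mean, except for an item not reported here; HBM was chosen after its values were seen, as was the limit of 100. The members and lists were chosen with earlier results of these data known. Alternatives were a pseudocount of 1, a minimum mean of 10, centring, 1 row per symbol, folds of 1.5 and 4, and leaving out each library. Python 3.11.15, NumPy 2.4.6, pandas 2.3.3 and SciPy 1.17.1 were used.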

Additional observations from a re-analysis of the deposited data

Results flagged for a closer look

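In 6 of 18 sets of library values checked for the members, the highest library lay further from the others than the 95% critical value of Dixon's test, where chance flags about 1 in 20 groups of normally distributed values. In these sparse counts the limit was passed far more often, in 16.8% of all sets of the 4 libraries and 41.1% of those of the 7, beside 4 of 14 and 2 of 4 member sets. In 3 of the 6, reads came from a single library, which fixes the flag. In the 4 libraries these were UROS, at 46.7 normalized counts in the library of size factor 0.620, SPTB at 82.2 in the same library, ALAD XM_004372141.1 at 1.28 and SLC11A2 at 1.92, the last 2 each from a single library with reads, that of size factor 1.56. In the 7 libraries they were ALAD XM_004372141.1 at 12.8 in the library of size factor 1.17 and SLC11A2 at 2.72, from 3 reads in 1 library.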

How the results depend on the processing

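The 7 rows at least 2-fold higher in the 7-library mean stayed within 1.5 times that count under a pseudocount of 1, a minimum mean of 10 (5 rows), centring, 1 row per symbol (6 rows) and a fold of 1.5 (10 rows), and came to 3 with a fold of 4. The count of 1 in the other direction, KLF1, became 0 with a minimum mean of 10 and with a fold of 4. Leaving out each of the 4 libraries where reads were recovered gave 6 to 7 and 0 to 1 rows, the 0 without the library of size factor 0.372, and a median ratio of -0.50 to -0.27. Only the 14 member rows with recovered reads could change in these runs. The other rows, among them ALAS2, SLC25A37 and TMOD1, kept their full 4-library mean, so the count and the median were partly held fixed. The rows changed where the count did not: without the library of size factor 1.56, ALAD XM_004372141.1 had no reads and no ratio and PPOX came past 2-fold (-1.01), and without that of 0.620 SLC11A1 left (-0.94) and SLC4A1 came in (-1.35). The count of 1 member with an exact permutation p under 0.05 was 0 to 1 over the 11 libraries left out, with 0 without each of the 4 and 1 without each of the 7. With a pseudocount of 1 the ratio of ALAD XM_004372141.1 was -1.81, and leaving out the library of size factor 1.17 gave -2.73, an alternative added after the values had been seen. No direction of a row past 2-fold reversed in any alternative run, but few alternatives could have done so. A pseudocount cannot change a sign, and for ALAS2, SLC25A37 and TMOD1 no library could be left out. For UROS, STEAP3, SLC11A1 and ALAD XM_004372141.1 all 4 libraries lay below the 7-library mean. Leaving out 1 of these 4 could therefore not reverse their ratios. No paired analysis was possible because the table holds group means and the recovered libraries carry no replicate number. Depth limits the rows of few reads, and the error of the means above the limits of 100 and 6 is unknown.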

Other observations

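Records of the same gene often disagreed in this table. Of 396 symbols with more than 1 row, 205 (51.8%) had ratios that differed by at least 1 on the log2 scale between their highest and lowest row, with a median difference of 1.06, and the ALAD rows, at -3.51 and 0.24, are among these.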
